A study of Mus musculus with 20 samples.

Results

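The telomere-proximal ends of the mouse autosomes were examined as the last 5 Mb of chromosomes 1 to 19. The end of a chromosome was taken as the highest end coordinate of any peak on it in 12 lists of chromatin immunoprecipitation (ChIP-seq) peaks, and a peak belonged to the end when its midpoint lay within 5 Mb of that coordinate. By this rule 72434 of the 1324083 listed peaks lay in the 19 ends, and 1212697 lay on the rest of the same chromosomes. The ends made up 95 Mb, or 3.93% of the sequence between the first and the last peak of these chromosomes. The choice used position alone and no peak score or density.

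The cells were mouse embryonic fibroblasts, primary connective tissue cells grown from C57BL/6 embryos (E13.5) and fixed at passage 4 while cycling asynchronously. Wild-type cells (WT) were set beside cells of the genotype Rb1L/L, whose retinoblastoma protein pRb carries a changed LXCXE-binding cleft. The series was designed to compare where each protein sits in the 2 genotypes, and its title concerns condensin II at promoters. TFIIIC and H3K27me3 had 2 libraries per genotype, and the condensin II subunits CAP-D3 and CAP-H2 had 1. Chromatin for H3K27me3, CAP-D3 and CAP-H2 was fixed with the long-arm crosslinker EGS followed by formaldehyde, and chromatin for TFIIIC with formaldehyde alone. The 8 input libraries have no peak list here.

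Mouse autosomes carry the centromere at the end where coordinates begin, so the high-coordinate end runs into the long-arm telomere. Condensin II is a ring complex that compacts chromosomes and is bound to chromatin through the cell cycle, with CAP-D3 and CAP-H2 among its non-SMC subunits. TFIIIC recognises the promoters of tRNA and other genes read by RNA polymerase III, and also binds sites that lack the polymerase. H3K27me3 is the histone mark set by Polycomb repressive complex 2, laid in broad domains over silenced developmental genes. pRb binds many chromatin proteins through the LXCXE cleft, the surface altered in Rb1L/L.

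The lists held 200350 to 301874 peaks for TFIIIC, 24741 to 56396 for H3K27me3, 13233 and 17576 for CAP-D3, and 42737 and 43151 for CAP-H2. Read numbers are unknown, so differences in depth and in genotype cannot be told apart in list length, and peak numbers were compared between positions within a list wherever possible. The WT condensin II lists share an input with WT H3K27me3 replicate 2, and the Rb1L/L ones with Rb1L/L H3K27me3 replicate 1, by their titles. The labels do not say that libraries of the same group came from separate cultures, so p-values cover only the variation among the libraries at hand, possibly technical.

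All 4 antibodies had more peaks per Mb in the ends than on the rest of the same chromosomes, in each of the 12 lists. TFIIIC had the largest mean ratio, with about 1.5 times the density in every list. In the WT libraries the ends held 114.8 and 143.0 TFIIIC peaks per Mb, where the rest held 79.5 and 93.7. In the Rb1L/L libraries the ends held 172.9 and 178.8, where the rest held 116.3 and 118.1. The end exceeded the rest in each of the 4 libraries. The ratio of end to rest was 1.45, 1.53, 1.49 and 1.51 in this order, a mean of 1.49 ± 0.036 (SD, n = 4), or 0.58 ± 0.03 on the log2 scale. The exact two-sided sign-flip permutation test over the 4 libraries gave p = 0.125, the smallest p that 4 libraries allow. With ends of 2 Mb in place of 5 Mb the mean log2 ratio was 0.16, below that of H3K27me3 at 0.46. H3K27me3 was also slightly above TFIIIC by covered length (0.66 against 0.64) and with equal numbers of top-scoring peaks (0.66 against 0.65).

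H3K27me3 was also denser in the ends, with more spread between libraries. The WT lists had 15.6 and 24.1 peaks per Mb in the ends and 9.98 and 17.5 on the rest. The Rb1L/L lists had 25.9 and 29.6 in the ends and 17.7 and 22.8 on the rest. The ratios were 1.56, 1.38, 1.46 and 1.302, a mean of 1.43 ± 0.11 (SD, n = 4; log2 0.51 ± 0.11; exact sign-flip permutation p = 0.125). Without chromosome 15 the mean log2 ratio was 0.33. The shortest list, of 24741 peaks, had the highest ratio and the longest, of 56396 peaks, the lowest. With equal numbers of top-scoring peaks the log2 ratios were 0.65 and 0.69 in WT and 0.74 and 0.59 in Rb1L/L. The longest list was again lowest, and the shortest was no longer highest. That run also changes which peaks count, and the part of list length alone was not tested.

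With ends of 5 Mb, both condensin II subunits had smaller excesses. The ends held 8.92 CAP-D3 peaks per Mb in WT against 7.05 on the rest, a ratio of 1.27 (95% interval 1.18 to 1.36, from the exact Clopper-Pearson interval of the share of peaks in the ends). In Rb1L/L they held 6.83 against 5.29, a ratio of 1.29 (1.19 to 1.397). For CAP-H2 the densities were 20.9 against 17.3 in WT and 21.1 against 17.5 in Rb1L/L, with ratios of 1.21 (1.15 to 1.26) and 1.21 (1.15 to 1.26). These intervals cover counting error only, and with 1 list per genotype there is no replicate check. The lowest TFIIIC ratio, 1.45, lay above all 4 condensin II ratios, and so did the lowest H3K27me3 ratio, 1.302. Both CAP-D3 intervals reached above 1.302, however. With ends of 2 Mb the order of TFIIIC and condensin II reversed. The TFIIIC log2 ratios, 0.14 to 0.19, then lay below the condensin II values of 0.20 to 0.26.

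**Figure D1:**
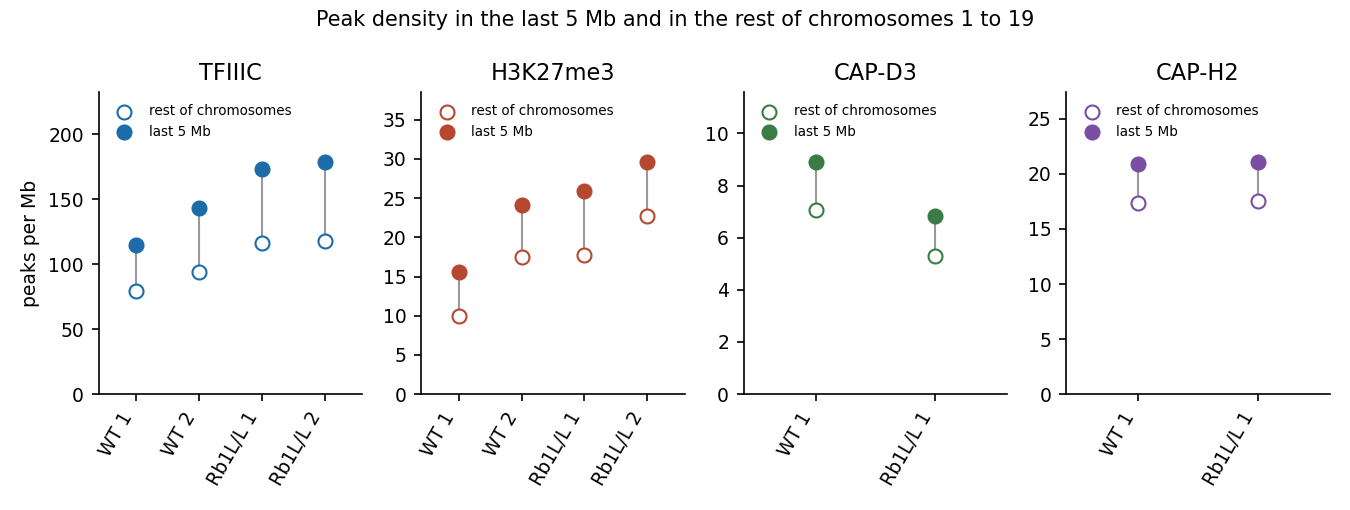
Peaks per Mb (vertical axis, 1 scale per antibody) in the last 5 Mb (filled) and on the rest (open) of chromosomes 1 to 19, 1 pair of points per peak list. In each of the 12 lists the filled point lies above the open one, from 6.83 against 5.29 for Rb1L/L CAP-D3 to 178.8 against 118.1 for TFIIIC in Rb1L/L replicate 2.

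The telomere-proximal ends were also denser than the opposite ends. Against the 5 Mb nearest the centromere, the telomere-proximal ends held 1.501 times the TFIIIC density (range of the 4 lists 1.45 to 1.54) and 1.89 times the H3K27me3 density (1.69 to 2.13), each with an exact sign-flip permutation p of 0.125. The CAP-D3 ratios were 1.26 and 1.27, and the CAP-H2 ratios 1.29 and 1.33, in WT and Rb1L/L.

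Peaks in the ends also covered more sequence and scored somewhat higher. TFIIIC peaks covered 8.71% and 11.8% of the ends in WT and 16.8% and 17.6% in Rb1L/L, where they covered 5.98%, 7.52%, 10.6% and 10.8% of the rest. H3K27me3 covered 1.65% to 3.51% of the ends and 0.961% to 2.38% of the rest. The score is the authors' own value for a peak, a multiple of the negative log10 of its p-value, and describes peaks within a list. Its median was higher in the ends in all 12 lists, with the widest gap in CAP-D3, where it was 489 in the ends and 354 on the rest in WT, and 873 and 731 in Rb1L/L. The exact sign-flip permutation p was 0.125 for TFIIIC and for H3K27me3.

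The excess was carried by some chromosomes and reversed on others. Between the 19 chromosomes, the log2 ratio of end to rest had an SD of 0.97 for TFIIIC, 1.45 for H3K27me3, 1.11 for CAP-D3 and 1.07 for CAP-H2. Between libraries of an antibody it had an SD of 0.07, 0.23, 0.28 and 0.08. The ends of chromosomes 4, 7, 8, 9, 10, 11 and 15 were above the rest in all 12 lists, and those of chromosomes 3, 13, 17 and 18 were below it in all 12. The other 8 ends differed between lists. A single list had 10 to 14 of its 19 ends above the rest.

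**Figure D2:**
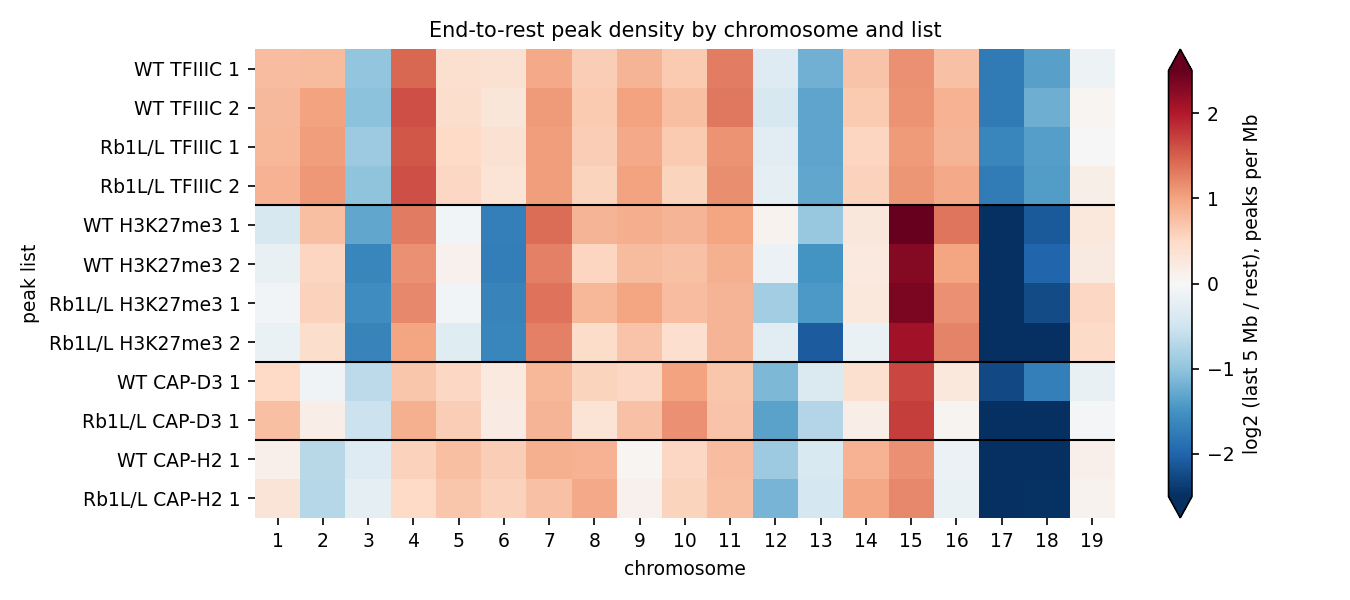
Log2 ratio of peaks per Mb in the last 5 Mb to the rest of the same chromosome (colour, red above and blue below, saturated beyond 2.5), for 19 chromosomes (columns) in 12 peak lists (rows, grouped by antibody). The columns of chromosomes 17 and 18 are blue and that of chromosome 15 is red in every list, while chromosome 2 is red for TFIIIC and blue for CAP-H2.

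By the ratio to its rest, the end of chromosome 15 stood highest for H3K27me3, CAP-D3 and CAP-H2, and behind chromosomes 4 and 11 for TFIIIC. It held 49.4 and 67.4 H3K27me3 peaks per Mb in WT and 75.8 and 79.6 in Rb1L/L, against 7.31, 13.8, 14.8 and 18.7 on the rest of chromosome 15. The mean H3K27me3 ratio there was 5.25 (log2 2.37 ± 0.28, SD, n = 4), and the 4 libraries ranged from 4.26 to 6.76. CAP-D3 had 20.2 and 15.6 peaks per Mb there in WT and Rb1L/L, against 6.34 and 4.72 on the rest. CAP-H2 had 39.0 and 41.0 against 17.7 and 17.8. TFIIIC had 170, 205, 240 and 257 against 76.5, 94.7, 115 and 120, about 2.15 times the rest.

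Within that end the antibodies did not all have their highest counts in the same megabase. The outermost megabase of chromosome 15 held 116, 143, 158 and 152 H3K27me3 peaks in the 4 libraries, and with a mean of 142 it ranked 3 among 2406 autosomal megabases, counted from the densest. The same megabase held 73, 86, 97 and 105 TFIIIC peaks, the fewest of the 5 megabases in this end. The megabase 3 to 4 Mb from the end held 209, 250, 289 and 311, the most in Rb1L/L. That at 4 to 5 Mb held 224, 266, 270 and 290, the most in WT. CAP-D3 also peaked 4 to 5 Mb from the end, with 27 and 24 peaks in WT and Rb1L/L. CAP-H2 peaked 1 to 2 Mb from the end, with 54 in both genotypes. The outermost megabase came next for both condensin II subunits, with 24 and 16 CAP-D3 peaks and 47 and 49 CAP-H2 peaks in WT and Rb1L/L. The broadest H3K27me3 peak of the whole list lay in this outermost megabase in both Rb1L/L libraries, at chr15:102735291-102791158 (55868 bp) and chr15:102734979-102809775 (74797 bp). In the WT libraries the broadest peak of all the ends was at the same place, with 14983 and 35935 bp, and ranked 8 and 4 in width on the autosomes.

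Relative to the rest of the chromosome, TFIIIC was densest in the ends of chromosomes 4, 11 and 15. The end of chromosome 4 held 233 and 309 TFIIIC peaks per Mb in WT and 371 and 386 in Rb1L/L, a mean of 2.93 times its rest (log2 1.55 ± 0.08, SD, n = 4). The megabase 2 to 3 Mb from that end, with 260, 349, 434 and 438 peaks, ranked 3 of 2406. The end of chromosome 11 followed with 2.34 times its rest (log2 1.22 ± 0.09), and its megabase 3 to 4 Mb from the end ranked 8. In all, 16 of the 120 megabases richest in TFIIIC lay in the ends, or 13.3%, while the ends made up 3.95% of the megabases. The shares were 7.44% for H3K27me3, 6.11% for CAP-D3 and 8.33% for CAP-H2.

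After chromosome 15, H3K27me3 was densest relative to the rest in the ends of chromosomes 7 (2.49 times, log2 1.32 ± 0.07) and 16 (2.27 times, log2 1.18 ± 0.15). CAP-D3 followed in those of chromosomes 10 (2.12 times) and 7 (1.79 times), and CAP-H2 in those of chromosomes 14 (1.90 times) and 8 (1.88 times). The megabase 1 to 2 Mb from the end of chromosome 11 held the most CAP-H2 peaks of any megabase in the ends, 67 in WT and 68 in Rb1L/L, and ranked 14 of 2406.

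Relative to their rest, the ends of chromosomes 17 and 18 were the poorest for all 4 antibodies. In TFIIIC peaks per Mb the ends of chromosomes 13 (37.1) and 3 (38.5) were below that of chromosome 17. The end of chromosome 17 held 154, 185, 246 and 230 TFIIIC peaks in its 5 Mb, a mean of 40.8 per Mb against 135 on its rest (0.301 times, log2 −1.73 ± 0.06). It held 9 and 11 H3K27me3 peaks in WT and 8 and 11 in Rb1L/L, a mean of 1.95 per Mb against 22.4 (0.0915 times). CAP-D3 had 9 and 4 peaks there, and CAP-H2 had 17 and 15. The outermost megabase of chromosome 17 had no H3K27me3 peak in any of the 4 lists. On chromosome 18 the mean ratio was 0.396 for TFIIIC, 0.217 for H3K27me3, 0.215 for CAP-D3 and 0.179 for CAP-H2, and no library of any antibody reached a ratio of 1 there. The next lowest ends were those of chromosome 13 for TFIIIC (0.411 times), of chromosome 6 for H3K27me3 (0.311 times) and of chromosome 12 for CAP-D3 (0.427 times) and CAP-H2 (0.489 times).

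Some ends were rich in one antibody and poor in another. On chromosome 2, TFIIIC was denser in the end in all 4 libraries (145, 198, 253 and 262 peaks per Mb against 84.3, 99.2, 122 and 124), while CAP-H2 was sparser in both (11.6 in each against 18.7 and 19.1). The ratios were 1.98 for TFIIIC, 1.499 for H3K27me3, 1.03 for CAP-D3 and 0.614 for CAP-H2. Both inner megabases were poor in CAP-H2. The one 3 to 4 Mb from the end held 119, 179, 254 and 282 TFIIIC peaks but 5 and 3 CAP-H2 peaks. The one 4 to 5 Mb from the end held 50, 72, 76 and 86 TFIIIC peaks, no H3K27me3 peak in 4 lists and no CAP-H2 peak in 2, so that TFIIIC, with a mean of 71.0 against 107 per Mb on the rest, was sparse there too. On chromosome 6, H3K27me3 reached 0.303 to 0.323 times the rest in its 4 libraries, where TFIIIC had 1.23 to 1.31 times and CAP-H2 1.49 and 1.53 times. On chromosome 16, H3K27me3 had 1.98 to 2.53 times the rest and CAP-H2 0.887 and 0.900 times. Within each of these pairs the libraries of the antibodies did not overlap. That alone does not mark these ends, since the TFIIIC and CAP-H2 libraries overlapped on chromosomes 15 and 19 only.

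Across the 19 ends the antibodies otherwise ran together. Over the mean log2 ratios of 19 chromosomes, Pearson's r was 0.94 between CAP-D3 and CAP-H2 (Spearman's rho 0.78), 0.88 between TFIIIC and H3K27me3 (rho 0.88), and 0.87 between TFIIIC and CAP-D3 (rho 0.83). The lowest was 0.74 between H3K27me3 and CAP-H2 (rho 0.58). These are descriptions over chromosomes. Some of the lists share inputs, and base composition and mappability, which all antibodies share at a given end, were not measured.

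To set the ends beside all other places, every autosome was divided into 5 Mb windows counted back from its end, and the density of each window was compared with the rest of its chromosome by limma over the 4 libraries, with Benjamini-Hochberg adjustment over all windows. For TFIIIC, 13 of the 19 end windows were higher than the rest of their chromosome at an adjusted p under 0.05 and 5 were lower. Among all 473 windows, 93.7% were called, 38.1% higher and 55.6% lower. The uncalled end was that of chromosome 19 (limma adjusted p = 0.570). For H3K27me3, 10 of the 19 end windows were higher and 5 lower, where 33.1% and 51.7% of 462 windows were called (84.8% in either direction). The libraries thus placed nearly every window on one side, and a call by itself does not mark an end. The median log2 ratio was 0.62 over the 19 end windows and −0.18 over all windows for TFIIIC, and 0.38 and −0.38 for H3K27me3.

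For the single condensin II lists, a window was counted when it passed 1.5-fold in both genotypes. For CAP-D3, 5 of 19 end windows passed upward and 3 downward, where 16.7% and 24.6% of all windows did. For CAP-H2, 6 passed upward and 4 downward, where 16.3% and 25.1% did. Ranked within its chromosome, the end window stood among the densest 25% on 10 chromosomes for TFIIIC, on 6 for H3K27me3, and on 8 for CAP-D3 and for CAP-H2. It was the densest of all windows on 3, 2, 1 and 1 chromosomes, and the sparsest on 3, 1, 2 and 1.

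With distance from the end, TFIIIC density was near that of the rest in the outermost megabase and higher inside it. The mean ratio to the rest was 1.01 ± 0.028 (SD, n = 4) in the first megabase, 1.27 in the second, and 1.72, 1.85 ± 0.073 and 1.62 in the next ones inward. The 4 libraries ranged from 0.988 to 1.05 in the first and from 1.75 to 1.91 between 3 and 4 Mb, without overlap. H3K27me3 followed no such course, with 1.46 ± 0.18 in the outermost megabase and 1.34, 1.61, 1.16 and 1.57 in the next ones inward. CAP-D3 was at 1.23 in the outermost and at 1.41 between 4 and 5 Mb, and CAP-H2 stayed between 1.15 and 1.27. Chromosome 15 held 27.4% to 36.7% of the H3K27me3 peaks of the outermost megabase. Without it the H3K27me3 ratio there was 1.03 ± 0.080 (SD, n = 4) and ranged from 0.958 to 1.11, beside 1.02 ± 0.027 for TFIIIC, and the CAP-D3 and CAP-H2 means were 1.11 and 1.103.

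The excess did not stop at 5 Mb. TFIIIC still reached 1.85 times the rest at 7 to 8 Mb from the end and fell to 1.11 at 10 to 11 Mb. At that distance H3K27me3 was at 0.666, CAP-D3 at 0.884 and CAP-H2 at 0.845. All 4 then rose again at 14 to 15 Mb, to 1.77, 1.303, 1.82 and 1.55, which for CAP-D3 and CAP-H2 was above every megabase of the ends.

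**Figure D3:**
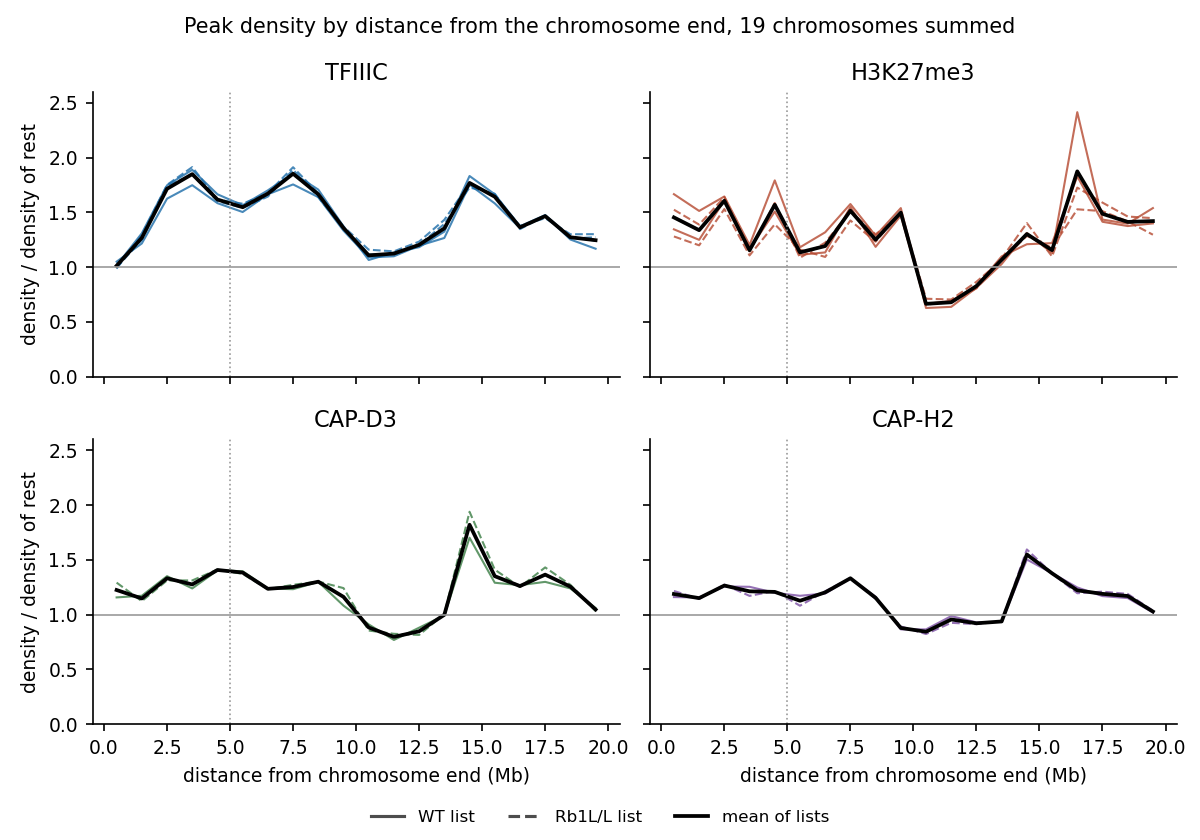
Peak density in 1 Mb steps from the chromosome end (horizontal axis, Mb), summed over 19 chromosomes and divided by the density outside the last 5 Mb (vertical axis), with a thin line for each list and a black line for their mean. The dotted line marks 5 Mb. TFIIIC starts at 1.01 and reaches 1.85, and the 4 antibodies share a dip near 10 to 11 Mb and a rise at 14 to 15 Mb.

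The tips are described here without a comparison between antibodies, since the end coordinate is itself a peak of these lists, of TFIIIC on 12 of 19 chromosomes, and a longer list has peaks closer to any point. The outermost TFIIIC peak lay a median of 4.80, 3.79, 2.87 and 0.625 kb from the end over 19 chromosomes. The medians of the other 8 lists were 80.6 to 134 kb. The choice of the end coordinate and list length partly set these distances and the counts that follow. Within 10 kb of the end, TFIIIC had a peak on 13, 14, 15 and 15 of 19 chromosomes, H3K27me3 on 1, 3, 3 and 4, CAP-D3 on 2 and 1, and CAP-H2 on 2 and 4. The highest-scoring TFIIIC region of the ends was such a tip, chr13:120276164-120282299, 6136 bp wide and 3.91 kb from the end. Its scores were 3151, 3100, 3100 and 3100 in the 4 TFIIIC lists. It also held CAP-D3 peaks in both genotypes, with top scores of 237 in WT and 704 in Rb1L/L, and CAP-H2 in Rb1L/L with 150 and none in WT, while the rest of that chromosome end was among the poorest in TFIIIC.

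With all peaks counted, genotype differences in the ends were small beside the spread between libraries. The differences and the calls depended on the libraries and peaks used. On the log2 scale the end-to-rest ratio of TFIIIC was 0.57 ± 0.06 in WT and 0.59 ± 0.02 in Rb1L/L (SD, n = 2), a difference of 0.015 with an exact two-sided permutation p of 1.0. For H3K27me3 it was 0.55 ± 0.13 and 0.46 ± 0.11, a difference of −0.091 (exact permutation p = 0.667). With 2 libraries against 2 the smallest p possible is 0.3333, so this test cannot reach 0.05. With equal numbers of top-scoring peaks the TFIIIC difference was 0.11, from 0.53 and 0.66 in WT to 0.69 and 0.725 in Rb1L/L. By covered length it was 0.090, and both gave an exact permutation p of 0.3333. The H3K27me3 differences were then −0.0031 and −0.073. The CAP-D3 ratio differed by 0.029 and the CAP-H2 ratio by −0.00096 between single lists, inside their counting intervals.

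Peak numbers in the ends moved with the length of the list. TFIIIC density in Rb1L/L was 1.36 times that of WT in the ends and 1.35 times on the rest, and H3K27me3 density 1.397 and 1.47 times. CAP-D3 had 0.766 times the WT density in the ends and 0.751 on the rest, and CAP-H2 1.01 and 1.01 times. Without WT replicate 1 the TFIIIC difference of the log2 ratio was −0.024, and the H3K27me3 difference 0.0022, so neither kept its sign.

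Per chromosome end, the share of a library's peaks was compared between genotypes by limma over all 5 Mb windows. None of the 19 ends was called for TFIIIC, where 0.634% of all windows were (0.211% higher and 0.423% lower in Rb1L/L), and none for H3K27me3, where 0% were. At an unadjusted p under 0.05 there were 5 ends for TFIIIC and 0 for H3K27me3, out of 61 and 15 windows in all. The highest TFIIIC estimates in Rb1L/L were those of chromosome 2 (log2 0.16 ± 0.06 SE, limma adjusted p = 0.295) and chromosome 12 (0.13 ± 0.06, adjusted p = 0.372). Chromosome 16 was next by p, at 0.09 (adjusted p = 0.482). The lowest were chromosome 11 (−0.14 ± 0.05, limma adjusted p = 0.268), chromosome 10 (−0.13 ± 0.05) and chromosome 14 (−0.13 ± 0.05). Without WT replicate 2 the fit called 6 ends for TFIIIC (31.6%, where it called 30.0% of all windows) and 1 for H3K27me3 (5.26%, where it called 10.0%). Without WT replicate 1 it called 2 for TFIIIC (10.5%, where it called 7.19%). With equal numbers of top-scoring peaks it called 1 for TFIIIC, where it called 11.0% of all windows.

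H3K27me3 estimates were wider and mostly below 0 in Rb1L/L. They were above 0 in 4 of 19 ends, with a median of −0.14, where all windows had a median of 0.04. Without WT replicate 1 they were above 0 in 8 ends with a median of −0.044, without Rb1L/L replicate 2 the median was −0.035, and with equal numbers of peaks they were above 0 in 9 ends with a median of −0.071. The lowest were chromosomes 17 (−0.68 ± 0.50 SE), 13 (−0.51 ± 0.36) and 12 (−0.475 ± 0.27), the highest chromosomes 16 (0.22 ± 0.18), 1 (0.20 ± 0.24) and 19 (0.11 ± 0.16), all with a limma adjusted p of 0.984. The end of chromosome 17 rests on 8 to 11 peaks per library.

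**Figure D4:**
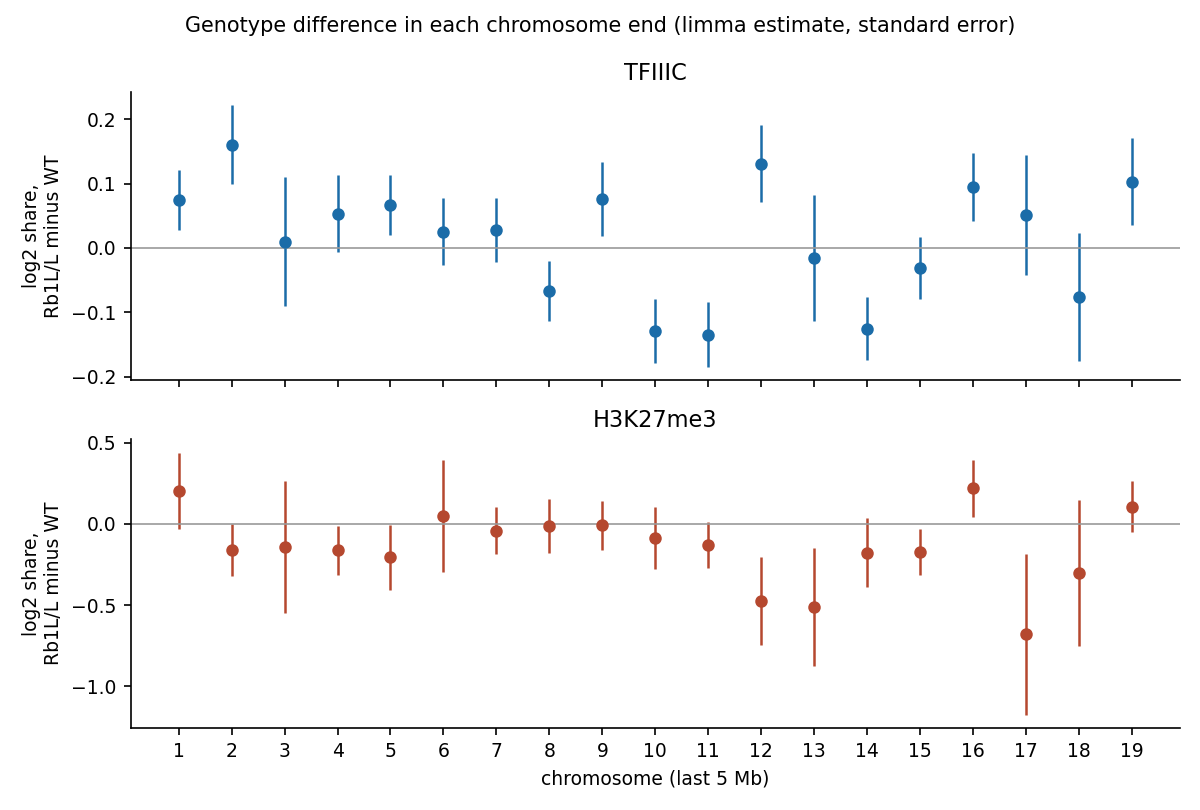
Log2 share of a library's autosomal peaks in each chromosome end (horizontal axis, chromosome), Rb1L/L minus WT, as the limma estimate with its standard error, for TFIIIC and H3K27me3 (separate vertical scales). No end was called after adjustment, and the estimates run from −0.14 to 0.16 for TFIIIC and from −0.68 to 0.22 for H3K27me3.

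Regions shared by every library of an antibody took a somewhat larger share in the ends. Overlapping peaks of an antibody were first joined into regions. The lists of each antibody also covered more of the ends, and these shares do not allow for that. For TFIIIC, 4398 of 22461 end regions had a peak in all 4 libraries, or 19.6% (95% exact binomial interval 19.1 to 20.1), against 17.8% on the rest. For H3K27me3 it was 472 of 4234 regions, 11.1% (10.2 to 12.1) against 8.57%. For CAP-D3, 499 of 977 regions were called in both genotypes, 51.1% (47.9 to 54.3) against 42.8%, and for CAP-H2 1376 of 2470, 55.7% (53.7 to 57.7) against 54.0%, which lies inside that interval. These intervals take regions as independent and cover counting error only, not variation between libraries. Regions with both Rb1L/L libraries and no WT library numbered 2252 for TFIIIC (10.0% against 9.46% on the rest) and 231 for H3K27me3 (5.46% against 5.37%). The reverse class held 318 (1.42% against 1.68%) and 34 (0.803% against 0.761%).

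Condensin II peaks in the ends met other peaks more often than elsewhere. In WT, 61.9% of CAP-D3 peaks in the ends (95% exact binomial interval 58.5 to 65.2) overlapped a CAP-H2 peak, against 55.8% on the rest, and in Rb1L/L 72.3% (68.7 to 75.7) against 66.2%. TFIIIC overlapped 33.5% and 32.6% of the WT CAP-H2 peaks in the ends, 1 value per TFIIIC library, against 23.9% and 24.2% on the rest. In Rb1L/L the shares were 31.8% and 31.3% against 21.8% and 21.9%. For CAP-D3 they were 35.0% and 32.8% against 28.8% and 26.9% in WT, and 25.9% and 26.7% against 21.4% and 20.5% in Rb1L/L.

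The TFIIIC lists also covered more of the ends, and that moved with these overlaps. The share of CAP-H2 midpoints inside a TFIIIC peak, divided by the share of sequence those peaks covered, was 2.04 and 1.48 in the WT ends and 2.18 and 1.69 on the rest. In Rb1L/L it was 0.945 and 0.951 against 1.00 and 0.977. For CAP-D3 it was 2.47 and 1.499 against 3.07 and 2.12 in WT, and 0.632 and 0.649 against 0.891 and 0.815 in Rb1L/L. Relative to covered sequence, the overlap of either subunit with TFIIIC was therefore lower in the ends than on the rest in all 8 pairs of lists. CAP-D3 with CAP-H2 gave 25.6 against 27.9 in WT and 29.1 against 33.6 in Rb1L/L.

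**Figure D5:**
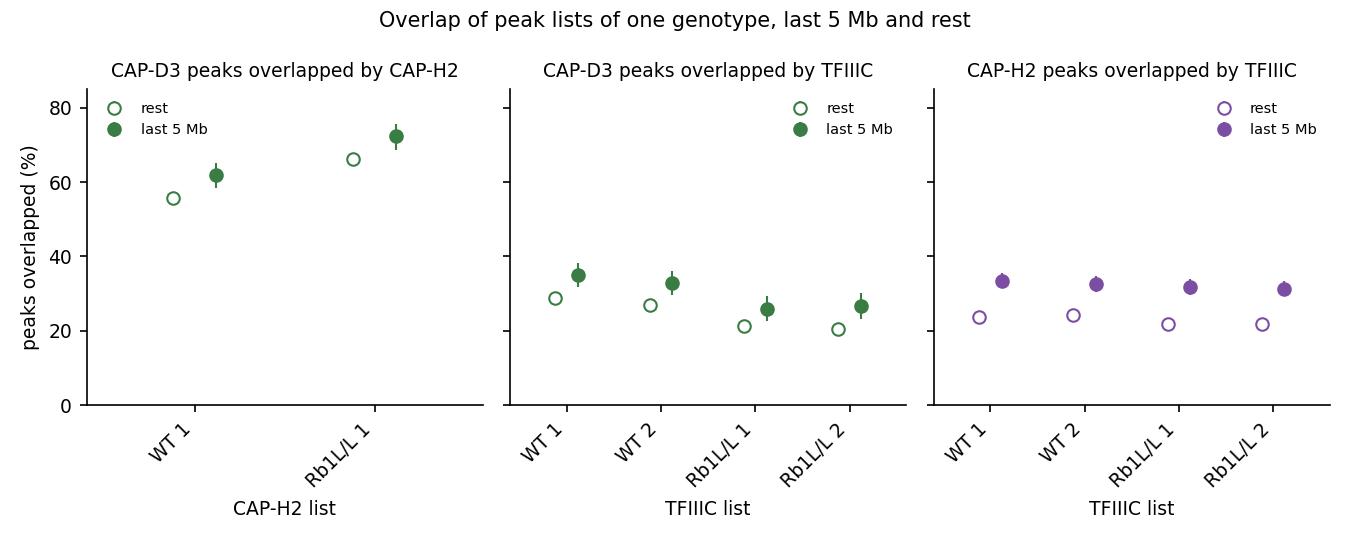
Share of condensin II peaks overlapped by at least 1 bp (vertical axis, percent) by CAP-H2 or TFIIIC peaks of the same genotype (horizontal axis, list), in the last 5 Mb (filled) and on the rest (open), with exact 95% binomial intervals. The filled points lie above the open ones in each pair, for example 33.5% against 23.9% for CAP-H2 with WT TFIIIC replicate 1.

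H3K27me3 overlapped a larger share of the CAP-D3 peaks than of the CAP-H2 peaks. It overlapped 5.31% and 7.79% of the CAP-D3 peaks of the WT ends and 10.6% and 8.32% of those of Rb1L/L. For CAP-H2 the shares were 1.81%, 2.42%, 3.84% and 3.04%. On the rest of the chromosomes they were 4.34%, 5.92%, 7.92% and 6.53% for CAP-D3, and 1.05%, 1.67%, 2.23% and 1.64% for CAP-H2. Relative to the sequence H3K27me3 covered, the share of CAP-D3 midpoints inside it was 2.72, 2.19, 2.67 and 1.98 in the ends and 3.45, 2.602, 3.12 and 2.02 on the rest, lower in the ends in all 4 lists. For CAP-H2 it was higher in the ends in all 4 lists, at 0.854, 0.609, 0.866 and 0.612 against 0.715, 0.604, 0.779 and 0.419.

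The leading end regions differed in what else they carried. For CAP-D3 and H3K27me3 all 5 tied at a lowest score of 3100, so the tie-break by mean score and width ordered them. In the ends 13.6% (WT) and 21.0% (Rb1L/L) of CAP-D3 peaks scored 3100 or more. For H3K27me3 it was 2.81% to 4.81%. Of the 5 highest-scoring TFIIIC regions, 3 had no peak of another antibody, each of the 5 H3K27me3 regions had TFIIIC peaks in at least 2 lists, and 4 of the 5 CAP-D3 regions had CAP-H2 in both genotypes. Over all merged end regions 86.4% held 1 antibody, and 61.9% (WT) and 72.3% (Rb1L/L) of all CAP-D3 end peaks overlapped CAP-H2. The share of all H3K27me3 end regions with TFIIIC was not counted. The leading H3K27me3 regions were 9025 to 37278 bp wide and the TFIIIC ones 2981 to 6136 bp, and the counts of 5 do not allow for width. Among the TFIIIC regions, chr16:95730155-95733135 (scores 3045, 3100, 3100 and 3100) had no peak of another antibody, while chr7:148823209-148826521 also had CAP-H2 in both genotypes (215 and 296). The leading H3K27me3 regions, at chr7:149130942-149139966 and chr2:180065766-180074997, scored 3100 or more in all 4 libraries and had no condensin II peak. The leading CAP-D3 region, chr16:93883559-93884637, scored 3233 in WT and 3100 in Rb1L/L and had no other peak. The next, chr4:154596994-154597806, had CAP-H2 in both genotypes with 388 and 265.

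All 5 leading end regions of CAP-H2 scored 3100 in both genotypes and also held TFIIIC peaks in at least 3 of 4 lists. They were 6219 to 9819 bp wide, where the median CAP-H2 peak of the ends had 913 bp in WT and 879 bp in Rb1L/L. The choice itself set this width, since ties at 3100 were broken by width. The part of width in their TFIIIC overlap was not tested. Of all CAP-H2 end peaks, 31.3% to 33.5% overlapped a TFIIIC list. The first, chr11:120202775-120212593, 1636 kb from the end, had peaks in all 12 lists, with TFIIIC scores of 681, 1842, 626 and 1168 and CAP-D3 scores of 1851 and 2907. The second, chr8:131260414-131269133, had TFIIIC in 3 of 4 lists and no CAP-D3. The third one, chr9:120035998-120044488, had TFIIIC scores of 1153, 2309, 2160.5 and 3100.

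Regions with a peak in all 12 lists were few, 7 in the ends out of 86 on the autosomes, or 8.14%. Those with all 4 antibodies numbered 56 of 799, or 7.01%. The ends held 24711 of 496693 merged regions of any kind, or 4.97%. The leading one, chr9:123370330-123371750, lay 704 kb from the end and scored 874 or more in every list, with 3100 in each condensin II list. It was followed by chr6:145880215-145882029, in the chromosome end that was otherwise poor in H3K27me3, with H3K27me3 scores of 2393, 825, 3100 and 676. Also among them, chr15:102824635-102849139, spanned 24505 bp inside the outermost megabase of chromosome 15.

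The leading regions called in a single genotype had lower minimum scores than those of every library. The selection itself favours this, since such regions were called in no library of the other genotype. The classes also differ in size, for TFIIIC 4398 regions of every library, 318 of WT only and 2252 of Rb1L/L only. For TFIIIC, the leading regions of both WT libraries without an Rb1L/L peak were chr7:150599467-150600757 (674 and 823) and chr2:179337492-179338650 (466 and 599). Another pair, chr9:122859612-122860748 and chr12:119081775-119082718, held CAP-D3 peaks in both genotypes, with scores of 1690 and 1541 at the former and 2861 and 3100 at the latter. The leading regions of both Rb1L/L libraries were chr11:118751860-118753556 (1218.5 and 1544) and chr4:153273192-153275271 (1084 and 2391). None of the 5 leading regions of this kind had a condensin II peak in either genotype, against 2 of the 5 of the WT kind, and with so few regions this difference was not tested. Of the 24711 merged end regions, 86.4% held 1 antibody only. The share with condensin II over all regions of either kind was not counted, so no link to genotype follows.

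For H3K27me3, chr1:193808131-193809605 led the WT kind (573 and 331) and held TFIIIC peaks in 3 of 4 lists, and chr4:154766590-154767876 led the Rb1L/L kind (747 and 514) with no other peak. The region chr9:123832326-123834576, 242 kb from the end, led the Rb1L/L peaks of both condensin II subunits, with a CAP-D3 score of 1307 and a CAP-H2 score of 1194 and neither subunit called in WT. In WT, the second-highest such CAP-D3 peak, at chr15:98885677-98886799 (score 1203), lay in an H3K27me3 region that scored 3100 in all 4 libraries and had no Rb1L/L CAP-D3 peak within 1 kb. The WT CAP-H2 peaks at chr1:192752067-192753597 (534) and chr19:61302099-61303498 (340, 37.6 kb from the end) lay on CAP-D3 peaks called in both genotypes, with scores of 3100 and 3100 at the former and 2542 and 2523 at the latter.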

How the data were processed

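Per the submitters' processing notes, the tools were Bowtie2 2.3.0 and MACS 1.4.0rc2 on the mm9 build, with settings not given in the sources used here. The authors deposited 1 peak list per immunoprecipitated library, so replicates were not pooled, with a position and a score for each peak. The read depth and its precision are unknown. Chromosome ends, windows and named regions were chosen with earlier results of these data known. Coordinates are mm9 and 1-based. Genes were not assigned.

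Peak midpoints were counted in the last 5 Mb and on the rest of chromosomes 1 to 19. Log2 ratios of peaks per Mb were compared over libraries by exact permutation (scipy 1.17.1), and single lists carry Clopper-Pearson 95% intervals. Windows of 5 Mb were counted back from the chromosome end and fitted with limma 3.58.1 (R 4.3.3), with a Benjamini-Hochberg threshold of 0.05 over all windows. The genotype fit used the log2 share per 1000 autosomal peaks, a pseudocount of 0.5 peaks and windows averaging at least 5 peaks. Lists overlap by at least 1 bp. The functions were tested on simulated data.

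Named ends were the 3 highest and 3 lowest per antibody by mean log2 ratio. Named regions were the 5 with the highest minimum score per class (every library, a single genotype, all 12 lists), with ties at the score of 3100 broken by mean score and then width, and the leading ones are given. Named genotype estimates were the 3 smallest p per direction. Ends that set antibodies against each other (chromosomes 2, 6 and 16) and the peaks, megabases and broadest peaks of single ends were chosen after their values were seen. Alternatives were a score of at least 100, equal numbers of top-scoring peaks, ends of 2 and 10 Mb, covered length, the rest without the 5 Mb nearest the centromere, leaving out regions in all 12 lists, each chromosome or each replicate, windows of 1 Mb, a pseudocount of 2 peaks, no window filter, other overlap rules and a replicate block.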

Additional observations from a re-analysis of the deposited data

How the results depend on the processing

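The end-to-rest ratios of TFIIIC and H3K27me3 kept their direction under each alternative run, but the log2 ratio of TFIIIC was 0.16 with ends of 2 Mb (0.58 with 5 Mb), and that of H3K27me3 0.33 without chromosome 15 (0.51 with all). Without single replicates they ran from 0.57 to 0.59 and from 0.46 to 0.55. Those of single condensin II lists also stayed above 0. For WT CAP-D3 the log2 ratio was 0.475 with equal numbers of peaks, 0.21 with ends of 2 Mb, and 0.23 at the lowest when 1 chromosome was left out. For WT CAP-H2 it was 0.36 at a score of at least 100 and 0.20 to 0.34 without 1 chromosome, and for Rb1L/L CAP-H2 0.19 to 0.34. Windows of 1 Mb gave 53 of 95 end windows above their chromosome and 38 below for TFIIIC (55.8% above, 35.2% of all windows), and 37 of 85 above and 32 below for H3K27me3 (43.5%, 29.3% of all). Without single replicates the counts of 5 Mb end windows were 13 for TFIIIC and 9 to 10 for H3K27me3.

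The TFIIIC genotype difference was −0.021 with ends of 2 Mb, and −0.024 to 0.054 without single replicates. It was largest with equal numbers of top-scoring peaks (0.11) and by covered length (0.090). That of H3K27me3 was −0.18 to 0.0022 without single replicates. End windows called between genotypes for TFIIIC, 0 in the report, were 1 with equal numbers of peaks (52 of 473 windows in all), 1 with windows of 1 Mb (14 of 2397), and 0 to 6 without single replicates (1 to 142 of 473); for H3K27me3 they were 0 to 1 (0 to 46). A genotype left with 1 library was assumed to vary like the other. Libraries share only a replicate number (correlation of deviations 0.32 for TFIIIC and 0.31 for H3K27me3, with 2 pairs). With a replicate block, 2 end windows were called for TFIIIC (31 of 473 in all) and 0 for H3K27me3 (3 of 462), and the block left the genotype differences of 0.015 and −0.091 as they were. The cause of these changes was not tested.

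The overlap excess of the ends, in percentage points, depended on its definition. For CAP-D3 with CAP-H2 ends of 10 Mb gave 1.90 in WT and 1.31 in Rb1L/L, from 6.10 and 6.10. With at least 50% of a peak covered it was 1.71 and 1.95 for CAP-D3 with TFIIIC and 4.74 and 5.73 for CAP-H2 with TFIIIC, and with a gap of up to 1 kb 9.91 and 10.03, and 11.6 and 11.97. Ends of 10 Mb gave 4.89 for WT CAP-D3 with TFIIIC and 10.6 for Rb1L/L CAP-H2 with TFIIIC, where a score of at least 100 gave 10.2.

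Alternatives for single ends, and the outermost megabase without chromosome 15, were chosen after seeing the data. With ends of 10 Mb the log2 ratio was 0.012 on chromosome 18 for TFIIIC, 0.40 on chromosome 12 for CAP-D3 and 0.11 on chromosome 12 for CAP-H2, all of them below 0 at 5 Mb. With ends of 2 Mb it was −0.29 on chromosome 16 for H3K27me3 and −0.61 on chromosome 14 for CAP-H2, both above 0 at 5 Mb. Unknown read depth limits each comparison of peak numbers between genotypes, and the single condensin II lists have no replicate check.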
